A study of Mus musculus with 2 samples.

Results

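The aminoacyl-tRNA synthetase genes are the 37 nuclear genes matched by symbol among the 27874 symbols of a colon expression table, 21 for enzymes of the cytosol and 16 for enzymes of the mitochondrion. Poly(A)-selected RNA was sequenced from colon lamina propria of mice on the C57BL/6J background, with 1 library of genotype K14/hyal1 and 1 library of genotype Control. In mouse lines K14 usually names the promoter of keratin 14, a protein of basal cells in skin and other stratified epithelia, and Hyal1 encodes a hyaluronidase. The labels do not say what the Control mouse carries, nor the age or number of animals behind a library. Members were chosen by symbol, names ending in ars2 being mitochondrial, and transcript rows were summed per symbol.

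Each aminoacyl-tRNA synthetase joins an amino acid to its matching transfer RNA, the step that sets which amino acid a codon is read as. Cytosolic enzymes serve the bulk of translation, and several of them are held in the multisynthetase complex. A separate set, made in the cytosol and imported, charges the transfer RNAs encoded by mitochondrial DNA. In mammals, several cytosolic synthetase genes are known targets of ATF4, the transcription factor of the amino acid response, and Wars is known for its induction by interferon gamma.

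Every value below compares 1 library with 1 library. No difference has a replicate check, no test was possible, and a difference between these libraries is not shown to be one between genotypes. Levels are in counts per 1000000 (CPM), and bracketed ranges are exact 95% intervals for counting error only. The table held an estimated 13813793 reads of K14/hyal1 and 25447374 of Control. Single members rested on 48 to 8114 estimated reads in K14/hyal1 and 107 to 3087 in Control. A gene passed the filter on low values at a mean of 2.31 CPM, and 36 of the 37 members passed; Sars2, for mitochondrial serine, did not. Epithelial markers were abundant in both libraries (summed over 7 genes, 2984 CPM in K14/hyal1 and 2840 CPM in Control), in material given as lamina propria. Of these 7, 4 were higher in K14/hyal1 and 3 lower (Krt20, Vil1 and Cdh1). Smooth muscle markers were abundant too, at 2928 CPM in K14/hyal1 and 2575 CPM in Control, summed over 5 genes. Summed fibroblast markers were at 887 CPM in K14/hyal1 and 367 CPM in Control, and 5 of 7 were at least 2-fold higher. Col1a1 went the other way, at 28.7 CPM in K14/hyal1 and 42.0 CPM in Control, a ratio of 0.684 (0.632 to 0.740). In the same order, macrophage markers were at 205 and 55.3 CPM (6 of 7) and endothelial markers at 59.9 and 26.5 CPM (1 of 4). Plasma cell markers were at 176 and 58.3 CPM (2 of the 3 past the filter, of 5 listed). Beside these counts, the share over all genes was 3.75%. Of the plasma cell markers, Tnfrsf17 and Mzb1 were below 1 CPM in both libraries, Tnfrsf17 at 0.172 CPM in K14/hyal1 and 0.0164 CPM in Control; no listed marker was at 0. The part of cell makeup in the results below was not tested. In bulk RNA, fewer cells of a type and less RNA per cell cannot be told apart. Hyal1 itself had 3.77 CPM in K14/hyal1 and 3.36 CPM in Control, a ratio of 1.12 (0.879 to 1.42).

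All synthetase genes but Lars2 were within 2-fold between the libraries. On the scale log2((K14/hyal1 CPM + 1)/(Control CPM + 1)), 1 of the 36 filtered members reached 2-fold higher in K14/hyal1 and 0 reached 2-fold lower. The same shares among the 13559 genes that passed were 3.75% higher and 1.54% lower. These are 509 and 209 genes, a split that turned to 301 and 346 when both libraries were set to the same median gene. The median log2 ratio of the 36 members was 0.33, against 0.21 over all genes. At 1.5-fold on this scale 6 members were higher (Lars2, Lars, Farsb, Nars, Tars and Dars), against 17.7% of all genes, and 0 were lower, against 4.89%. The counting interval of the ratio lay above 1 for 23 members, against 53.1% of all genes, and below 1 for 2 members, against 17.5%. The share of members at 1.5-fold higher was close to the background. Together the 37 genes had 879 CPM in K14/hyal1 and 510 CPM in Control, and without Lars2 599 CPM in K14/hyal1 and 465 CPM in Control.

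**Figure D1:**
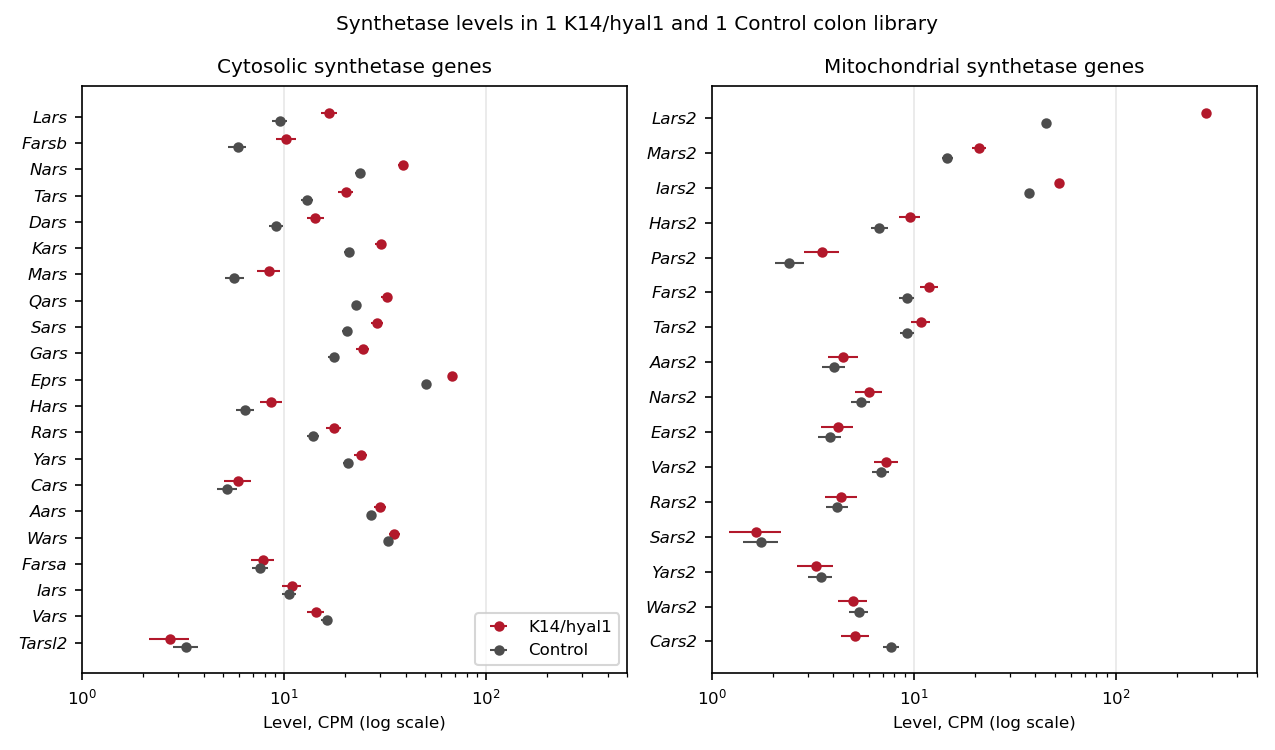
Level in CPM (log axis) of each cytosolic (left) and mitochondrial (right) synthetase gene in the K14/hyal1 library (red) and the Control library (grey), with 1 library each and bars for the 95% counting interval, ordered by log2 ratio. Most pairs of points lie close together, and Lars2 is the exception, at 279.6 CPM in K14/hyal1 and 45.1 CPM in Control.

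Lars2 encodes the enzyme that charges mitochondrial leucine transfer RNA, and lies on chromosome 9 at 123366927-123462666 (mm10, plus strand). It had 279.6 CPM in K14/hyal1 (273.5 to 285.7, 8114 estimated reads) and 45.1 CPM in Control (43.4 to 46.8, 2757 estimated reads). The ratio was 6.20 (5.93 to 6.47) and the log2 ratio 2.60, at or above which 31 of all genes past the filter stood. Lars2 alone made up 65.0% of the summed mitochondrial synthetase CPM in K14/hyal1 and 27.0% in Control. Divided by transcript length, its level was 71.8 CPM per kilobase in K14/hyal1 and 11.6 CPM per kilobase in Control. In K14/hyal1 the next member per kilobase was Nars at 14.1, while in Control Wars, at 11.5 CPM per kilobase, was close to Lars2. The lead of Lars2 over the other members was thus present in the K14/hyal1 library and near nil in Control. The authors' deposited table gives Lars2 a false discovery rate of 3.98e-27, where 2.26% of all its genes are below 0.05. In the authors' deposited table none of the other 36 members is below 0.05, and the lowest is Nars at 0.732. The model behind that rate is not given, and the colon files used here hold 1 library per genotype.

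High ratios were seen too for structural RNAs, most of which carry no poly(A) tail. Of 22 listed ribosomal and small structural RNA genes, 14 were matched by symbol and 10 passed the filter. All 10 reached 2-fold higher in K14/hyal1, against 3.75% of all genes, with a median log2 ratio of 2.08. Rn18s-rs5, a ribosomal RNA entry, had 34329 CPM in K14/hyal1 and 5826 CPM in Control, a ratio of 5.89. Rpph1, the RNA of ribonuclease P, had a ratio of 4.59, and the spliceosomal RNA genes Rnu1a1 and Rnu2-10 had 10.2 and 9.74. Rnu3b1, a nucleolar RNA gene, had 6.31 CPM in K14/hyal1 and 0.393 CPM in Control. The lowest was Rn7sk, a small nuclear RNA that regulates transcription elongation, at a ratio of 2.16. The direction was not shared by every ribosome-related entry. Gm26917, a long noncoding gene with very high counts, had 2827 CPM in K14/hyal1 and 10376 CPM in Control, a ratio of 0.272. The mitochondrial ribosomal RNA genes mt-Rnr1 and mt-Rnr2 were at ratios of 0.527 and 0.595. The part of these RNAs in the Lars2 difference was not tested. Of the stretches of 50 bases in the longest coding Lars2 transcript, 3 also occur in a transcript of another gene, Gm15564. That gene had 0.0345 CPM in K14/hyal1 and 0.0327 CPM in Control. These were 1 and 2 estimated reads, below the 3 reads taken as the limit of detection, so its libraries cannot be compared. The table gives Lars2 as 1 transcript row, so the reads cannot be placed along the gene, and a complete ribosomal RNA precursor was not compared here.

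Over the 15 mitochondrial synthetases that passed, the median log2 ratio was 0.13, and 0.12 without Lars2, with 12 of 15 above 0, against 69.6% of all genes, and 6 of 15 above the all-gene median. The median of all genes was 0.21. The position of the mitochondrial median against that of all genes depended on the filter: with the filter at a mean of 10 it was 0.48, and 0.41 without Lars2, against 0.23 over all genes. With no filter it was 0.12, against 0.06, and with a GC trend removed, an alternative chosen after seeing the data, 0.03 against 0. Its sign depended on the scaling. The mitochondrial median was -0.06 with the libraries set to the same median gene, -0.02 with TMM factors, and -0.0044 when the 20 most abundant genes were left out of the totals.

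Next to Lars2, the highest were the genes for the methionine, isoleucine and histidine enzymes. Mars2, which charges the mitochondrial methionine transfer RNA, had 20.95 CPM in K14/hyal1 (19.3 to 22.7) and 14.7 CPM in Control (13.7 to 15.7), a ratio of 1.43 (1.29 to 1.59). Iars2, for isoleucine, had 52.4 CPM in K14/hyal1 (49.8 to 55.1) and 37.3 CPM in Control (35.8 to 38.9), a ratio of 1.40 (1.31 to 1.498). For both, the counting intervals of the 2 libraries did not overlap, and the share of all genes for which this held was not counted. The ratio interval of both lay above 1, as for 53.1% of all genes. Hars2, for histidine, had 9.56 CPM in K14/hyal1 and 6.76 CPM in Control, a ratio of 1.41 (1.21 to 1.65). Pars2, for proline, had the ratio 1.45, but on 102 and 148 estimated reads its interval ran from 1.12 to 1.88. Phenylalanine and threonine enzymes followed. Fars2, for phenylalanine, had a ratio of 1.29 (1.13 to 1.48) and Tars2, for threonine, of 1.17 (1.02 to 1.35), and the sign of Tars2 turned with the libraries set to the same median gene.

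Cars2, for mitochondrial cysteine, was the lowest member of all. It had 5.12 CPM in K14/hyal1 (4.34 to 6.03) and 7.72 CPM in Control (7.03 to 8.44). With no pseudocount it was 1.51-fold lower in K14/hyal1 (1.25 to 1.82). With 1 CPM added to each library its log2 ratio was -0.51. The tryptophan gene Wars2 had 4.996 CPM in K14/hyal1 and 5.35 CPM in Control, a ratio of 0.934 (0.762 to 1.14). The tyrosine gene Yars2 had 3.27 CPM in K14/hyal1 and 3.45 CPM in Control, a ratio of 0.948 (0.736 to 1.21). Wars2 and Yars2 were not distinguishable between the libraries at this depth. Neither were Aars2, Ears2, Nars2, Rars2 and Vars2, for alanine, glutamate, asparagine, arginine and valine, whose ratios were 1.05 to 1.12 with intervals that held 1 and whose sign turned under each of the 3 rescalings. Aars2 was at 4.48 CPM in K14/hyal1 and 4.01 CPM in Control, Ears2 at 4.20 and 3.85 CPM, Nars2 at 5.99 and 5.47 CPM, Rars2 at 4.38 and 4.17 CPM, and Vars2 at 7.26 and 6.84 CPM. Sars2, below the filter, had 1.65 CPM in K14/hyal1 and 1.75 CPM in Control, a ratio of 0.945 (0.657 to 1.34).

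**Figure D2:**
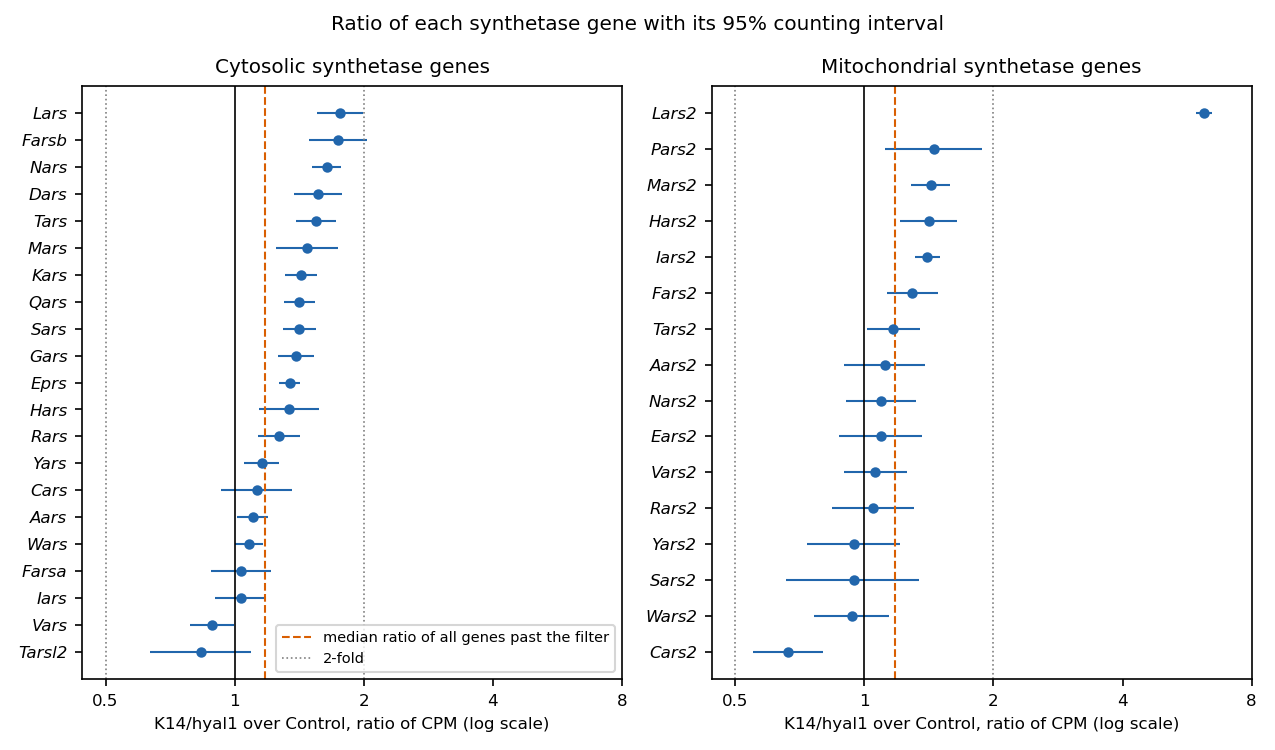
Ratio of CPM, K14/hyal1 over Control, on a log axis for each cytosolic (left) and mitochondrial (right) synthetase gene, with 95% counting intervals (1 library per genotype). The dashed line is the median ratio of all genes past the filter, 1.18, and dotted lines mark 2-fold; Lars2 at 6.20 is the only point past 2-fold, and Cars2 at 0.664 is the lowest.

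Over the 21 cytosolic synthetases the median log2 ratio was 0.42, against 0.21 over all genes. Of the 21, 19 were above 0, against 69.6% of all genes, and 5 were at least 1.5-fold higher, against 17.7%. None reached 2-fold higher, and 0 were lower at either fold. By count, 13 of 21 were above the all-gene median, and the difference from the mitochondrial members was not tested. The cytosolic median stayed above 0 under the same 3 rescalings, at 0.19, 0.23 and 0.26. Their sum was 449 CPM in K14/hyal1 and 343 CPM in Control, a ratio of 1.31.

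Lars, the cytosolic leucine enzyme and a subunit of the multisynthetase complex, was the highest cytosolic member. It had 16.7 CPM in K14/hyal1 (15.3 to 18.3) and 9.51 CPM in Control (8.75 to 10.3), a ratio of 1.76 (1.56 to 1.99). Farsb, the beta subunit of phenylalanyl-tRNA synthetase, had 10.2 CPM in K14/hyal1 (9.10 to 11.5) and 5.88 CPM in Control (5.28 to 6.51), a ratio of 1.74 (1.49 to 2.04). Its partner Farsa, the alpha subunit, was at 7.87 CPM in K14/hyal1 and 7.58 CPM in Control, a ratio of 1.04 (0.881 to 1.22). The 2 subunits of 1 enzyme thus had ratio intervals that did not overlap. Nars, for asparagine, had 38.7 CPM in K14/hyal1 (36.5 to 41.1) and 23.6 CPM in Control (22.4 to 24.9), a ratio of 1.64 (1.51 to 1.77). Tars, for threonine, had 20.2 CPM in K14/hyal1 and 13.0 CPM in Control, a ratio of 1.55 (1.39 to 1.73). Dars, for aspartate, had 14.3 CPM in K14/hyal1 and 9.13 CPM in Control, a ratio of 1.56 (1.37 to 1.78). In each of these 5 genes the counting intervals of the libraries did not overlap. The share of all genes for which this held was not counted. The ratio interval lay above 1 in all 5, as it did for 53.1% of all genes past the filter.

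At the low end were Tarsl2, a second cytosolic threonine enzyme, and Vars, the valine enzyme. Tarsl2 had 2.72 CPM in K14/hyal1 (2.15 to 3.39) and 3.25 CPM in Control (2.82 to 3.74), a ratio of 0.837 (0.636 to 1.09). Vars had 14.4 CPM in K14/hyal1 (13.1 to 15.9) and 16.3 CPM in Control (15.3 to 17.3), a ratio of 0.886 (0.789 to 0.995). The interval of Vars lay just below 1 and that of Tarsl2 held 1. Iars, for isoleucine, had 10.9 CPM in K14/hyal1 and 10.6 CPM in Control, a ratio of 1.03 (0.900 to 1.18). Of the 3, Iars is a subunit of the complex, and its sign turned under each rescaling.

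Between these ends lay Farsa and 12 other cytosolic members, at ratios of 1.04 to 1.47. Eprs, which joins the glutamate and proline activities in 1 protein, had 67.8 CPM in K14/hyal1 and 50.5 CPM in Control, a ratio of 1.34 (1.27 to 1.42). Kars and Gars, for lysine and glycine, are single genes whose products serve both compartments. Kars had 30.01 CPM in K14/hyal1 and 20.98 CPM in Control, a ratio of 1.43 (1.31 to 1.56), and Gars 24.5 CPM in K14/hyal1 and 17.6 CPM in Control, a ratio of 1.39 (1.26 to 1.53). Mars, for methionine, had 8.37 CPM in K14/hyal1 and 5.68 CPM in Control. Qars, for glutamine, had 32.3 CPM in K14/hyal1 and 22.8 CPM in Control, and Sars, for serine, 28.8 CPM in K14/hyal1 and 20.4 CPM in Control. Hars, for histidine, was at 8.60 CPM in K14/hyal1 and 6.43 CPM in Control, and Rars, for arginine, at 17.6 CPM in K14/hyal1 and 13.9 CPM in Control. The ratio intervals of all these lay above 1, as for 53.1% of all genes past the filter. Yars (tyrosine), Cars (cysteine), Aars (alanine) and Wars (tryptophan) had ratios of 1.16, 1.13, 1.10 and 1.08. Aars, Wars and Farsa changed sign under each of the 3 rescalings, Cars under 2 of them and Yars under 1, so no direction is given for these 5.

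The 8 enzymes of the multisynthetase complex had a median log2 ratio of 0.49, from Iars at 0.04 to Lars at 0.76, and the 13 cytosolic members outside it one of 0.20. The non-catalytic scaffold genes of the complex, Aimp1, Aimp2 and Eef1e1, were at ratios of 1.35 (1.20 to 1.52), 1.17 (0.937 to 1.45) and 1.58 (1.18 to 2.10). By catalytic fold, the 19 class I members had a median of 0.14 and the 17 class II members past the filter one of 0.40, with Eprs counted in class I although its proline domain is of class II. These medians describe single libraries and their differences were not tested.

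Where an amino acid has both a cytosolic and a mitochondrial enzyme, the ratios of the partners often differed. Of 16 such pairings that passed, the cytosolic gene had the higher log2 ratio in 11 and the mitochondrial gene in 5. The median difference was -0.11 for mitochondrial minus cytosolic. Some of the 11 were close to ties, with differences of -0.0021 (Mars2 and Mars), -0.0056 (Aars2 and Aars) and -0.019 (Pars2 and Eprs). Tars2, at 0.20, was paired with Tars only and not with Tarsl2, which was at -0.19. For leucine both genes were high, at 2.60 for Lars2 and 0.76 for Lars. For isoleucine the mitochondrial gene led, with 0.48 for Iars2 and 0.04 for Iars. For cysteine and asparagine the order was the other way, with -0.51 for Cars2 and 0.14 for Cars, and 0.11 for Nars2 and 0.69 for Nars. The methionine pair, Mars2 and Mars, were both at 0.49.

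**Figure D3:**
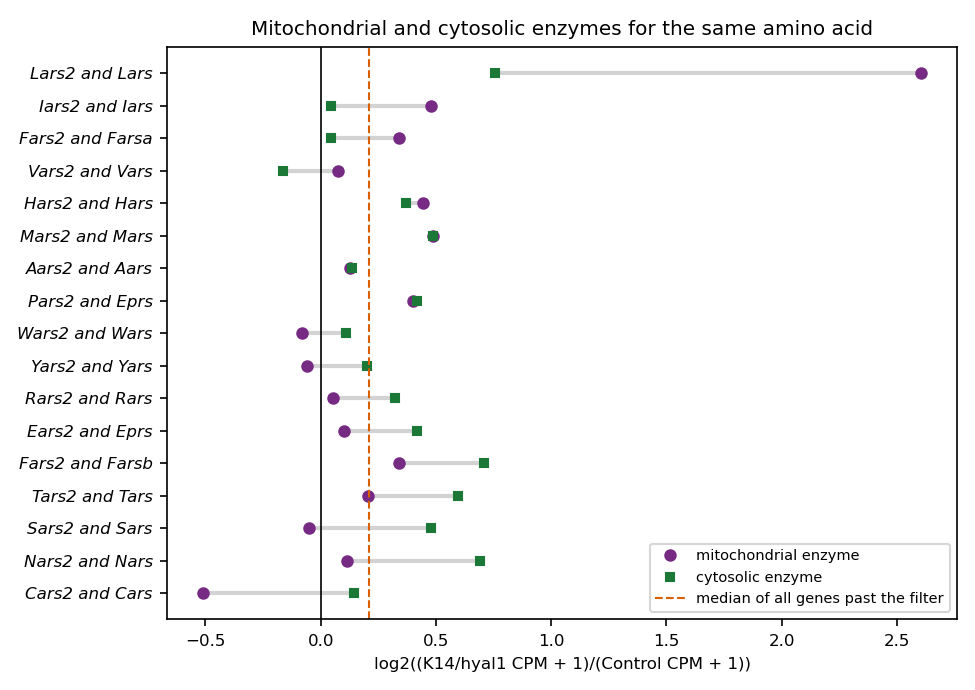
Log2 ratio, K14/hyal1 over Control with 1 CPM added to each, of the mitochondrial (circles) and cytosolic (squares) enzyme genes for the same amino acid, with the dashed line at the median of all genes past the filter, 0.21. Lars2 at 2.60 and Lars at 0.76 are both to the right of the line, while Cars2 at -0.51 is the leftmost point; Eprs and Fars2 appear in 2 pairings each.

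Motifs were searched in RefSeq promoters (GRCm38.p6, 250 bases before to 50 after each gene's start), which were matched for 28 members; Cars, Hars, Hars2, Lars, Nars, Pars2, Rars, Vars and Wars had no match. The C/EBP-ATF response element, searched as TGATGNAA on both strands, is the element through which ATF4 acts on amino acid response genes. It occurred in 5 of 14 cytosolic promoters, 0 of 14 mitochondrial ones and 4.51% of 27025 genes with a promoter. A match from each of these 5 genes is shown because the element is that of the amino acid response; the difference between compartments was not tested, and 9 of the 14 cytosolic promoters held no match. The sequences are windows of 30 bases on the coding strand with the element in capitals:
Aars, chr8:111033840-111033869: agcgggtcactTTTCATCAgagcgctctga
Gars, chr6:55037960-55037989: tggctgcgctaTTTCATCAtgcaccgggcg
Iars, chr13:49682126-49682155: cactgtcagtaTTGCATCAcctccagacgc
Tars, chr15:11399655-11399684 (minus strand): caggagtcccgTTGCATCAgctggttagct
Yars, chr4:129189895-129189924: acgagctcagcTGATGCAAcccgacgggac

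The 5 genes with this element had log2 ratios of 0.04 (Iars) to 0.60 (Tars), with a median of 0.20, and the 22 other members with a promoter and past the filter had a median of 0.27. Genes with and without the element therefore overlapped widely in these libraries. Nuclear respiratory factor 1 is a transcription factor of many genes for mitochondrial proteins, and its site was searched on both strands as GCGCA, any base and GCGC. It occurred in 3 of 14 cytosolic and 2 of 14 mitochondrial promoters and in 5.19% of all genes. No match overlapped one of the other motif. The matches are shown because their genes were among the higher members, again with the motif in capitals:
Farsb, chr1:78488850-78488879 (minus strand): cccgcatgtgGCGCAGGCGCagtgtccacg
Iars2, chr1:185329374-185329403 (minus strand): ccgccccggaGCGCGTGCGCagttcctcgc
Kars, chr8:112011384-112011413 (minus strand): gcccagcactGCGCCTGCGCagcgagagtc
Mars2, chr1:55237169-55237198: ccgtccagctGCGCACGCGCcctttcccgt
Tars, chr15:11399808-11399837 (minus strand): ggggaagagtGCGCTTGCGCgcctcactac
Tars, chr15:11399614-11399643 (minus strand): tggccacgtgGCGCACGCGCagtgcggaat

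These 5 genes had log2 ratios of 0.48 (Iars2) to 0.71 (Farsb), with a median of 0.50. The 22 others with a promoter and past the filter had a median of 0.13 and a range of -0.51 to 2.60. Members without a matched promoter, from Vars at -0.16 to Nars at 0.69 and Lars at 0.76, were in neither group. Both motifs were chosen with the values known, so this is a description, and a match does not show binding.

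Genes of the amino acid response lay near the background. Of 31 listed genes, 24 passed the filter, and the median log2 ratio was 0.23, near the 0.21 of all genes. With 1 CPM added to each library, as for every list here, 0 were at least 2-fold different in either direction. Without it, Slc1a4 and Stc2 were past 2-fold, at ratios of 2.15 (1.71 to 2.68) and 0.449 (0.352 to 0.568). Atf4 itself had 47.8 CPM in K14/hyal1 and 45.0 CPM in Control, a ratio of 1.06 (0.995 to 1.13), and Eif2ak4, the kinase that senses uncharged transfer RNA, one of 1.09 (0.919 to 1.29). The highest was Slc1a4, a neutral amino acid transporter, with 5.62 CPM in K14/hyal1 and 2.62 CPM in Control, at a log2 ratio of 0.87. The lowest was Stc2, a secreted stress glycoprotein, with 2.96 CPM in K14/hyal1 and 6.60 CPM in Control, at a log2 ratio of -0.94. Asns, for asparagine synthetase, had a ratio of 1.73 (1.39 to 2.16), whereas Ddit3, the transcription factor CHOP, had one of 0.838 (0.678 to 1.03). The listed response genes thus held values in both directions.

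Of the 21 interferon gamma induced genes, 13 passed the filter, with a median of 0.14 and 0 at least 2-fold different. They ran from Gbp2, a guanylate-binding protein, at -0.24 to the proteasome subunit gene Psmb9 at 0.49. Wars, the synthetase known to respond to interferon gamma, was within this range at 0.11, with 35.2 CPM in K14/hyal1 and 32.5 CPM in Control. Myc target genes of growth had a median of 0.38 over 17 genes, 0 at least 2-fold different, from Myc at -0.38 to Odc1, the polyamine synthesis enzyme, at 0.79.

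Genes of transfer RNA export and of charged transfer RNA delivery had a median of 0.53 over 7 genes, with 0 at least 2-fold different. The median was the value of the export gene Xpot. The elongation factor genes Eef1a1, Eef1b2 and Eef1g, which deliver charged transfer RNA to the ribosome or reload the factor that does, had ratios of 1.68, 1.74 and 1.59, while Eef1d, for another subunit of the exchange factor, had one of 1.11. Xpot, which exports transfer RNA from the nucleus, had a ratio of 1.49 (1.32 to 1.67), and Vars, counted here as a partner of the elongation factor, was lowest. Editing and quality control genes had a median of 0.23 over 9, 0 at least 2-fold different, from Ankrd16 at -0.21 to Prorsd1 at 0.52.

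On the mitochondrial side, 22 of 25 listed translation factors and transfer RNA modifiers passed the filter, with a median of 0.24 and 0 at least 2-fold different. They ran from Qrsl1, a subunit of the complex that forms mitochondrial glutamine transfer RNA, at -0.13 to Trmt10c, a transfer RNA methyltransferase subunit, at 0.53. Mars2, a member, was also on that list. The mitochondrially encoded genes, which this machinery translates or which form its ribosome, were lower in K14/hyal1. All 15 were below 0, with a median of -0.92, whereas 69.6% of all genes were above 0. At least 2-fold lower were 6 of the 15, against 1.54% of all genes. The lowest were mt-Nd4 at -1.97, mt-Nd5 at -1.85, mt-Atp8 at -1.59 and mt-Nd2 at -1.53, and the highest was mt-Nd3 at -0.08. The nuclear synthetases of the compartment and the transcripts of its genome therefore had medians on opposite sides of 0 as scaled by the authors, but after rescaling the mitochondrial synthetase median was below 0 as well.

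**Figure D4:**
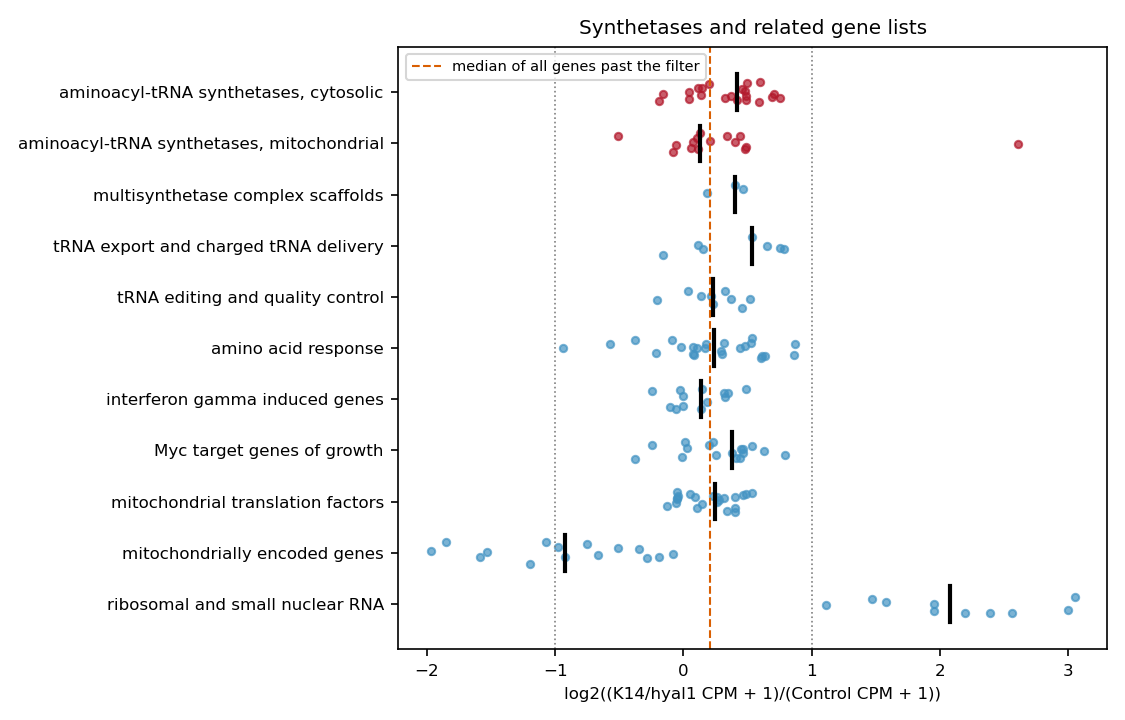
Log2 ratio, K14/hyal1 over Control with 1 CPM added to each, of every gene past the filter in the cytosolic and mitochondrial synthetase lists (red) and related lists (blue); black bars are list medians, the dashed line is the median of all genes and dotted lines mark 2-fold. Lars2 at 2.60 lies apart from the other synthetases and within the range of the ribosomal and small nuclear RNA genes (1.11 to 3.05), and the mitochondrially encoded genes lie below 0.

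The gene-level values hid uneven transcript rows. The 37 members had 182 rows, 8 of them with 1 row each, and all 8 single-row genes had a ratio above 1. Among the 29 with several rows, 23 had a gene ratio above 1, and the largest row lay on the other side of 1 from the gene in 7 (Cars, Ears2, Mars, Pars2, Sars2, Tarsl2 and Wars2). In Mars the largest row was at 4.29 CPM in K14/hyal1 and 4.37 CPM in Control, while the other rows were all higher in K14/hyal1. In Farsb the largest row had 8.08 CPM in K14/hyal1 and 3.76 CPM in Control, a ratio of 2.15, above that of the gene. In Dars 12.95 CPM of K14/hyal1 and 7.12 CPM of Control were in 1 row, and both minor rows were lower in K14/hyal1. In Cars2, 7 of 8 rows were lower in K14/hyal1. The file does not name the transcripts, and nothing in the sources says how reads were split among rows.

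Sequence sharing touched few members. In the longest coding transcript, 31 of 37 members shared no stretch of 50 bases with another annotated gene. The values of Aars, of whose stretches 22.4% also lie in the overlapping same-strand gene Exosc6, and of Iars, with 8.61% in Gm4849, are uncertain for that reason. Tarsl2 shared 2.32% with Tm2d3. In addition, 17 members overlap a gene on the other strand, among them Hars and Hars2 with each other on chromosome 18 and Mars with Ddit3 on chromosome 10. The kit keeps strand, but no source used here says whether the counting used it.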

How the data were processed

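Per the labels' protocols, total RNA (PureLink) went into TruSeq Stranded mRNA libraries on an Illumina HiSeq. Partek and the build mm10 are named in the submitters' processing notes. Not given in the sources used here: aligner, counting rule and versions. The deposited table of 72178 transcript rows names no unit; the values were read as CPM scaled by the authors, since low values were multiples of 1 step, 0.0345 in K14/hyal1 and 0.0164 in Control. The columns sum to 475975 and 416434. Of gene values up to 300 steps, 83.0% and 81.6% lay within 0.1 of a whole number, so read numbers are estimates, and a count test was not applied. The authors' deposited gene table gives least-squares mean CPM, a ratio, p-values and false discovery rates; the remaining tables were not used. A score in it, the authors' signed fold change, and a total were left aside.

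From each row an offset of 0.0001 was subtracted before summing by symbol. The filter was the median of the mean CPM over 27117 detected symbols. Level intervals were exact Poisson and ratio intervals exact Clopper-Pearson, at 95%; 3 reads, the lower limit of detection, are worth 0.103 CPM in K14/hyal1 and 0.0491 CPM in Control. Without molecular identifiers, reads are not independent molecules, and intervals cover counting error only. Coordinates and transcript lengths are those of GENCODE M21 (mm10). The steps were tested on simulated data.

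Members and the 14 gene lists were chosen with earlier results of these data known. The genes named were Lars2, members at least 2-fold different, the 3 highest and lowest of each compartment, and the extremes of each related list; the remaining members are given by ratio, and other genes named (Atf4, Eif2ak4, Asns, Ddit3, elongation factors, scaffolds, Gm26917) were picked for their role or after their values were seen. Alternatives were other pseudocounts, filters, scalings, thresholds, transcript rows and the authors' gene table. Versions were matplotlib 3.10.9, scipy 1.17.1, pandas 2.3.3, numpy 2.4.6 and Python 3.11.15.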

Additional observations from a re-analysis of the deposited data

How the results depend on the processing

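With 1 library per genotype, counting depth is the only error that could be measured, and Sars2, Tarsl2, Yars2 and Pars2 rest on the fewest K14/hyal1 reads. No paired analysis was possible because each genotype has 1 library. The count of members at least 2-fold different was 1 (Lars2) under each pseudocount, filter, scaling, table and trend tried. It was 6 with a 1.5-fold threshold and 0 without Lars2, the gene that decides it. The log2 ratio of Lars2 ran from 2.37 (libraries set to the same median gene) to 2.63 (pseudocount of 0.1).

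The cytosolic median, 0.42, was 0.19 with the libraries set to the same median gene and 0.23 both with TMM factors and with a pseudocount of 10. Removing a GC trend gave 0.19 and removing a length trend 0.25; both trends were chosen after seeing the data. The mitochondrial median, 0.13, was 0.48 with the filter at a mean of 10, which left 5 members. It was below 0 under the 3 rescalings and -0.05 without the length trend. Among single members, the sign changed in 12 of 36 when scaled to the median gene, in 10 with TMM factors and in 9 when the 20 most abundant genes were left out of the totals. It changed in 0 under the other settings run on single members, and no 2-fold value reversed.

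Over all genes, 509 were higher by 2-fold or more and 209 lower. Setting libraries to the same median gene gave 301 and 346, TMM factors 329 and 311, leaving out the 20 most abundant genes 342 and 295, a pseudocount of 10 126 and 76, and a pseudocount of 0.1 751 and 276. Removing the length trend gave 273 and 339, and removing the GC trend 304 and 320.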
